A study of Mus musculus with 14 samples.

Results

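The H3K27ac regions and ONECUT2 binding sites described here are those that lie nearest to 10 mouse genes of the AP-1 and NFAT families: Fos, Fosb, Fosl1, Fosl2, Jun, Junb, Jund, Batf, Atf3 and Nfatc1. A region or site was assigned to the nearest protein-coding gene span within 100 kb, so the choice used position and no measured level. Of 55050 H3K27ac regions of 2000 bp, 44 were assigned to these genes, and of 7268 listed ONECUT2 sites, 3 were. Nfatc1 had 11 regions, Fosl2 and Jun had 7 each, Fos and Atf3 had 6 each and Fosb had 3, while Fosl1, Junb, Jund and Batf had 1 each. All 44 regions passed the filter on low counts, with between 10 and 1452 reads per region and library. Coordinates are on mm10. A region may act on a gene other than its nearest one, and H3K27ac reports neither RNA nor protein.

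AP-1 is a dimeric transcription factor of the basic leucine zipper (bZIP) class, built from a Jun protein with a Fos protein or with a related bZIP protein such as BATF or ATF3. Many of its genes are immediate-early genes, which are switched on quickly and without new protein synthesis when growth factor, cytokine or stress kinases reach factors bound at their promoters. NFATc1 is held in the cytoplasm until calcium activates the phosphatase calcineurin, and it often binds DNA side by side with AP-1. In osteoclast precursors, RANKL acts through its receptor RANK to induce c-Fos and then NFATc1, whereas in the intestinal epithelium RANKL is the signal that drives microfold (M) cell differentiation.

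The study addressed the role of the transcription factor ONECUT2 in RANKL-driven differentiation of enterocytes and M cells. ChIPmentation, in which a transposase adds sequencing adapters to chromatin held on the antibody, was applied to mouse small intestinal organoids for H3K27ac, a histone acetylation found at active promoters and enhancers, and for ONECUT2. The RANKL organoids were kept for 3 days with EGF, Noggin and R-spondin 1 (ENR medium) plus 3 µM CHIR99021, which activates Wnt signalling, and 1.5 mM valproic acid, which inhibits histone deacetylases, then 1 day in ENR alone, and then 100 ng/mL RANKL until day 6 of that treatment. Control organoids were kept in ENR medium. Both arms came from line26, described as wild type and Lgr5GFPDTR/+, which was derived from a single female mouse, so every comparison is between protocols in 1 line. The contrast is thus of the full pretreatment and RANKL with plain ENR, and the part of RANKL in it cannot be told apart. Each arm had 3 H3K27ac and 3 ONECUT2 libraries from 3 independent differentiation experiments. The edgeR p-values and SEs given here rest on the spread between those experiments, estimated jointly over many regions. They therefore do not show the spread of any single region, for which the library values are printed.

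H3K27ac libraries held 2745451 to 3902301 reads in regions in the RANKL arm and 5434172 to 9160267 in the control arm, so RANKL values carry more counting error. H3K27ac at 8 M cell marker genes summed to 597 to 654 CPM (reads scaled to a common library size, the unit used throughout) in RANKL organoids, against 272 to 289 in control organoids, with 6 genes higher and 0 lower (0 also at an unadjusted p under 0.05 in edgeR and 0 by DESeq2). At 7 epithelial marker genes the sums were 1566 to 1668 CPM in RANKL organoids and 1775 to 2000 CPM in control organoids, with 1 gene higher and 5 lower. Markers of cells that a pure epithelial culture should lack also had regions: 9 of 9 mesenchymal genes, 7 of 7 endothelial genes and 6 of 9 leukocyte genes. Among all protein-coding genes (21887 spans), 15973 had a region, so a region assigned to a marker is the usual case. It does not by itself show that the cell type was present. Mesenchymal sums were 303 to 332 CPM with RANKL and 272 to 275 CPM in controls, with 3 genes higher and 1 lower. With scaling computed on gene sums, 5 were higher and 0 lower, beside 25.0% higher and 26.9% lower of all genes. Endothelial sums were 457 to 476 CPM with RANKL and 457 to 484 CPM in controls, but all 7 genes were called, 4 higher and 3 lower, among them Flt1 (log2 fold change 1.24) and Eng (-1.32). Without RANKL replicate 1 or control replicate 2, 3 were higher and 3 lower. Leukocyte sums were 123 to 138 CPM with RANKL and 91.8 to 109 CPM in controls, with 5 genes higher and 1 lower, and 3 higher without RANKL replicate 1, RANKL replicate 3 or control replicate 2. With the main scaling, 16.2% of all genes tested were called higher and 38.6% lower. In these bulk samples a changed share of a cell type and a changed signal per cell cannot be told apart, and the part of either in the results below was not tested.

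Regions near the AP-1 and NFAT genes fell more often than they rose. A region was called when the Benjamini-Hochberg adjusted p of edgeR's quasi-likelihood test over all 54690 tested regions was under 0.05. By that rule 4 of the 44 regions were higher with RANKL, 17 were lower and 23 were not called. The called share was 47.7%, beside 35.9% of all tested regions, of which 14.8% were higher and 21.1% lower. These shares were not matched for signal: the median level was 19.0 CPM over the 44 regions and 9.44 CPM over all tested regions. Weaker regions carry more counting error and are harder to call. The median log2 fold change, RANKL over control, was -0.20 over the 44 regions and 0.06 over all tested regions. In 22 of the 44 regions the libraries of the arms did not overlap, which was 50% beside 44.9% of all regions.

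Position and signal strength went along with these counts. Of the 9 regions within 2 kb of an end of their gene, 0 were higher (0 also at an unadjusted p under 0.05 in edgeR and 0 by DESeq2) and 5 were lower, and over all such regions 7.62% were higher and 45.5% lower. Of the 35 regions farther from gene ends, 4 were higher and 12 were lower, while 16.8% of all assigned regions of that kind were higher and 15.1% lower. Median log2 fold changes were -0.42 and -0.14 in these groups of regions, beside -0.30 and 0.13 for all regions of each kind. Across all regions the fold change was lower where signal was strong: with regions split by mean signal into 10 equal classes, its median was 0.29 in the weakest and -0.28 in the strongest, which held 10 of the 44 regions. When that trend was removed, 18 of the 21 calls were kept, and 3 more regions were called higher and 1 more lower. All regions then split into 15.4% higher and 15.4% lower.

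**Figure D1:**
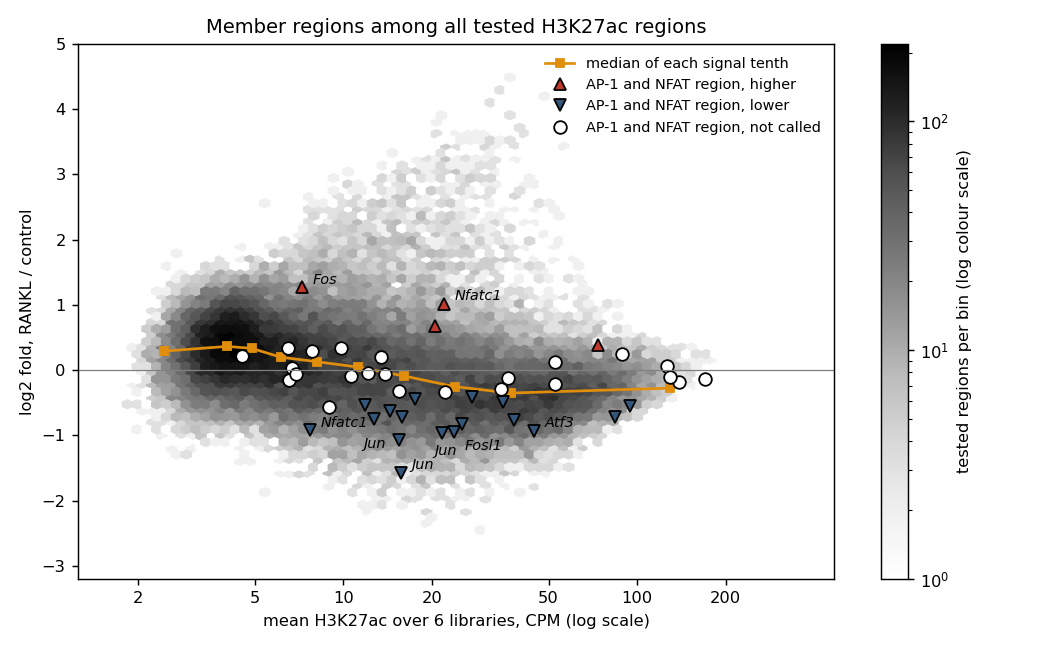
The log2 fold change of H3K27ac, RANKL over control (y axis), is plotted against the mean over 6 libraries in CPM on a log scale (x axis), with all 54690 tested regions as grey bins and the 44 regions of the AP-1 and NFAT genes as symbols. The orange line gives the median of each of 10 equal classes of regions by signal. It runs between 0.36 and -0.35, and the called Jun, Fosl1 and Atf3 regions lie below it, while the 4 regions called higher, at Fos, Fosb and Nfatc1, lie above it.

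Promoter sequence is shown for Fos, Fosb and Atf3, whose start regions fell, and for Jun, whose start region was not called. Each line gives the 250 bases before the start of the gene, 5′ to 3′ on the strand of the gene, from RefSeq on GRCm38.p6. Capitals mark matches, on either strand, to the cAMP response element type TGACNTCA or to its first letters TGACG. The windows lie at chr12:85473640-85473889 (plus strand) for Fos, chr7:19310046-19310295 (minus strand) for Fosb, chr1:191183334-191183583 (minus strand) for Atf3 and chr4:95052223-95052472 (minus strand) for Jun, and all 250 bases of each lie inside an H3K27ac region.
Fos: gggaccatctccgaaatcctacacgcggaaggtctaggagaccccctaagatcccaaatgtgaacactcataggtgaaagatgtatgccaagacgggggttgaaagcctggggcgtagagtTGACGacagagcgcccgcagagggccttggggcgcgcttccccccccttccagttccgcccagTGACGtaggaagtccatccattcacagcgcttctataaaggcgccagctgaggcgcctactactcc
Fosb: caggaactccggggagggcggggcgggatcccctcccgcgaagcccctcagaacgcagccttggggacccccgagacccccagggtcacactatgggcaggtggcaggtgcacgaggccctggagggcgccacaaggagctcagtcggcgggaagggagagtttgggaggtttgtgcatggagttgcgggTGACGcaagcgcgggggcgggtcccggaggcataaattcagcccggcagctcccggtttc
Atf3: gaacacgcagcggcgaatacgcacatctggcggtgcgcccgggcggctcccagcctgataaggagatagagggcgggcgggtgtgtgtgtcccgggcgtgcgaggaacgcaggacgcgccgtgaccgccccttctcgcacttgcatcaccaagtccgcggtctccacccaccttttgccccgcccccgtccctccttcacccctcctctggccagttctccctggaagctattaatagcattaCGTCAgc
Jun: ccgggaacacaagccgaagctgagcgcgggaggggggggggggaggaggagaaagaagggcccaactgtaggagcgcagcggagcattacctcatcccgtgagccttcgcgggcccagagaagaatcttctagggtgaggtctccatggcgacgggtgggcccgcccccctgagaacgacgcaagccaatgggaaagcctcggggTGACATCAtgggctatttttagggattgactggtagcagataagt

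A search of both strands covered 7 motifs in the 8 members with a promoter entry. TGACG stood before 5 of the 8 starts (Fos, Fosb, Junb, Batf and Atf3), and 17.8% of all 32851 promoter windows of this length held it. Fos carried it at 129 to 125 and at 66 to 62 bases before the start. TGACNTCA was found before Jun alone, at 45 to 38 bases, and in 7.49% of all windows. The consensus AP-1 element TGACTCA (4.46% of windows), the CArG box bound by serum response factor (1.47%) and the ONECUT palindrome ATCGAT (0.728%) were found in none of the 8. Only the 250 bases before each start were searched, so the absence of a motif there says nothing of sequence farther away. GGAAA, the core of NFAT sites, stood before Jun and Batf (55.6% of windows), and ATCAAT, an ONECUT binding sequence, stood before Batf (6.72%). TGACNTCA overlaps TGACG where N is G.

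H3K27ac at Fos, which encodes the founding Fos-family partner of Jun, moved in both directions along the locus. The region over the start of the gene (chr12:85472851-85474851) held 82.0, 80.6 and 67.0 CPM in RANKL organoids, against 117.9, 101.4 and 117.0 CPM in control organoids. Every RANKL library was below every control library. The log2 fold change was -0.55 ± 0.11 (SE), with an adjusted p of 3.54e-06 in edgeR's quasi-likelihood test.

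Of all Fos regions, the one 43.7 kb upstream (chr12:85429155-85431155) had the smallest adjusted p. It held 62.1, 68.2 and 61.2 CPM in RANKL organoids and 111.7, 96.3 and 107.1 CPM in control organoids, again without overlap, and fell by 0.71 ± 0.11 on the log2 scale (adjusted p = 2.27e-09). A weaker region 29.3 kb upstream had 15.3, 17.8 and 21.2 CPM with RANKL and 31.5, 33.0 and 33.8 CPM in controls, a change of -0.83 ± 0.15. Between them and the gene, the region 18.5 kb upstream went the other way. It held 77.0, 84.5 and 88.2 CPM in RANKL organoids, against 66.3, 58.8 and 67.5 CPM in control organoids, and rose by 0.39 ± 0.11 (adjusted p = 0.00184). All RANKL libraries lay above all control libraries there. Each of these 4 calls held under all 12 alternatives run on the same regions.

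Downstream of Fos, the region 12.2 kb past the start was stronger than the start in every RANKL library and weaker than it in every control library. It had 100.9, 102.6 and 84.3 CPM with RANKL and 85.4, 73.8 and 84.4 CPM in controls, a log2 fold change of 0.24 with an adjusted p of 0.0664, and the arms overlapped. It was called higher with the signal trend removed (0.44), with library size only (0.34) and without RANKL replicate 3 (0.33). Within each library, this region over the start region gave a ratio of 1.23, 1.27 and 1.26 in RANKL organoids and 0.725, 0.728 and 0.721 in control organoids. The ratio does not depend on library scaling, and it was tight within each arm. With 3 libraries against 3, the exact two-sided permutation p of 0.1 is the smallest possible. The faint region 24.1 kb past the start held 6.42, 9.96 and 14.7 CPM with RANKL and 2.90, 6.71 and 2.81 CPM in controls. It rose by 1.27 ± 0.29, although its arms overlapped.

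**Figure D2:**
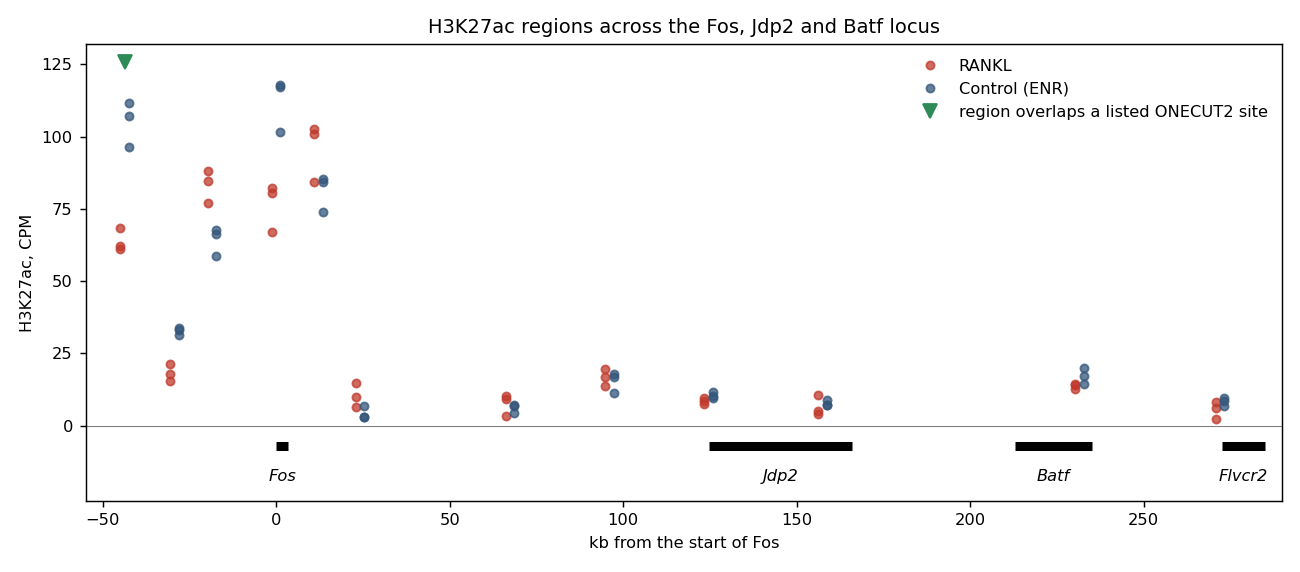
H3K27ac in CPM (y axis) is shown for each library at every region of the Fos, Jdp2 and Batf neighbourhood on chromosome 12, against the distance from the start of Fos in kb (x axis), with RANKL libraries drawn left of control libraries. Black bars are gene spans, drawn up to the edge of the plot, and the green triangle marks the region that overlaps a listed ONECUT2 site. The 5 called regions all belong to Fos, and the Fos region at 12.2 kb and the 6 regions from 67.4 kb onward were not called.

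The Fos locus is shared with other bZIP genes. Jdp2, a repressor that pairs with Jun, begins 124.8 kb beyond the start of Fos, and Batf begins at 212.8 kb. Of 12 regions assigned to Fos, Jdp2, Batf and Flvcr2, 2 were higher, 3 were lower and 7 were not called, and every called one was a Fos region. Jdp2 had 4 regions with log2 fold changes between -0.33 and 0.33.

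Fosb, a close relative of Fos, had a start region that fell and an upstream region that rose. Its start region (chr7:19309364-19311364) held 26.8, 29.3 and 28.9 CPM in RANKL organoids, against 49.7, 48.4 and 46.1 CPM in control organoids. The arms were far apart, and the change was -0.76 ± 0.13 with an adjusted p of 3.49e-08. By contrast, the region 10.0 kb upstream had 24.6, 21.4 and 29.9 CPM with RANKL and 15.1, 16.8 and 15.6 CPM in controls, and rose by 0.68 ± 0.16 (adjusted p = 0.000179). Both calls held under all 12 alternatives. The third region, at the far end of the gene, fell by 0.42, but that call was lost under 5 alternatives. Among these were the removal of the signal trend (-0.15) and the loss of RANKL replicate 2 (-0.36) or control replicate 3 (-0.37).

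Fosl1 and Fosl2 encode Fra-1 and Fra-2, Fos-family proteins without the strong activation domain of c-Fos. Fosl1 had a single region, over its lower-coordinate end (chr19:5446589-5448589), with 13.2, 13.6 and 21.0 CPM in RANKL organoids and 34.2, 31.7 and 29.1 CPM in control organoids. The arms did not overlap, and the region fell by 0.95 ± 0.15 (adjusted p = 1.35e-08). At Fosl2 the start region (chr5:32134793-32136793) was among the strongest of the 44, with 151, 124 and 116 CPM with RANKL and 158, 130 and 157 CPM in controls. The libraries overlapped there, and the change of -0.19 ± 0.10 was not called (adjusted p = 0.154), although it was called without control replicate 2 (-0.31) or without RANKL replicate 1 (-0.30). The Fosl2 region with the smallest adjusted p, 11.4 kb upstream (chr5:32124122-32126122), held 25.0, 29.0 and 32.3 CPM with RANKL and 42.5, 36.0 and 44.8 CPM in controls. It fell by 0.48 ± 0.13 (adjusted p = 0.000894), but with the signal trend removed the value was -0.17 and not called. Another region 42.5 kb past the start fell by 0.44, a call that was lost under 7 alternatives. Among these were the loss of RANKL replicate 1 or 2 or of control replicate 2 or 3 (-0.39 to -0.43). The remaining 4 Fosl2 regions had log2 fold changes between -0.21 and 0.19 and were not called.

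Jun, which encodes c-Jun, had the strongest of all 44 regions over its start (chr4:95051257-95053257). That region held 170.5, 163.8 and 152.3 CPM in RANKL organoids and 191.1, 159.7 and 186.4 CPM in control organoids. The libraries overlapped, and the log2 fold change of -0.14 ± 0.10 was not called (adjusted p = 0.298), though it was without control replicate 2 (-0.25). The decrease at Jun lay upstream instead. A region 81.7 kb upstream (chr4:95132966-95134966) had 8.20, 8.45 and 6.99 CPM with RANKL and 24.4, 20.9 and 25.3 CPM in controls, and its fall of 1.58 ± 0.20 was the largest of the 44 (adjusted p = 3.42e-13).

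Neighbouring Jun regions went the same way. At 30.3 kb upstream the change was -1.08 ± 0.19, and at 91.7 kb upstream it was -0.97 ± 0.16, both with no overlap between the arms and both called under all 12 alternatives. At 16.1 kb upstream the change was -0.54, and that call was lost under 6 alternatives, among them the loss of RANKL replicate 1 (-0.43) or 3 (-0.49) or of control replicate 2 (-0.48) or 3 (-0.52). The regions 10.8 kb upstream and 11.3 kb past the start, nearer to the gene, had log2 fold changes of -0.09 and 0.03 and were not called.

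Junb and Jund encode the other Jun proteins, and each had 1 strong region on the gene. The Junb region (chr8:84975526-84977526) covers the far part of the gene and held 142.3, 132.4 and 115.2 CPM in RANKL organoids, against 129.5, 112.2 and 129.4 CPM in control organoids. Its log2 fold change was 0.07 ± 0.10 and was not called, but with the signal trend removed it was 0.19 and called (adjusted p = 0.00476). The Jund region (chr8:70697881-70699881) begins inside the gene and had 124.5, 136.4 and 112.5 CPM with RANKL and 146.1, 119.1 and 139.3 CPM in controls. It differed by -0.11 ± 0.10 and was called only without control replicate 2 (-0.22). In both genes the arms overlapped, and the 250 bases before the start lay outside the region. Batf, whose protein pairs with Jun in lymphocytes, had 1 weak region 18.6 kb inside the gene (chr12:85704353-85706353). That region held 14.3, 14.2 and 12.5 CPM in RANKL organoids and 20.1, 14.5 and 17.3 CPM in control organoids, a change of -0.33 ± 0.19 that was not called (adjusted p = 0.178) even though every RANKL library was below every control library.

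Atf3, a stress-induced bZIP factor that pairs with Jun, lost signal at its start region (chr1:191182534-191184534). RANKL organoids had 27.1, 39.2 and 25.8 CPM there and control organoids had 60.3, 55.2 and 60.6 CPM. The arms were well separated, and the fall of 0.93 ± 0.12 (adjusted p = 2.66e-12) held under all 12 alternatives. The other 5 Atf3 regions were not called. The strongest of these, 41.1 kb upstream, held 55.6, 54.3 and 54.7 CPM with RANKL and 45.6, 49.4 and 56.1 CPM in controls, a log2 fold change of 0.12 that became 0.42 and called with the signal trend removed. In RANKL organoids this distal region was stronger than the start in each library, with ratios of 2.05, 1.38 and 2.12, whereas in control organoids it was weaker, with ratios of 0.756, 0.894 and 0.926 (exact two-sided permutation p = 0.1, the smallest possible).

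**Figure D3:**
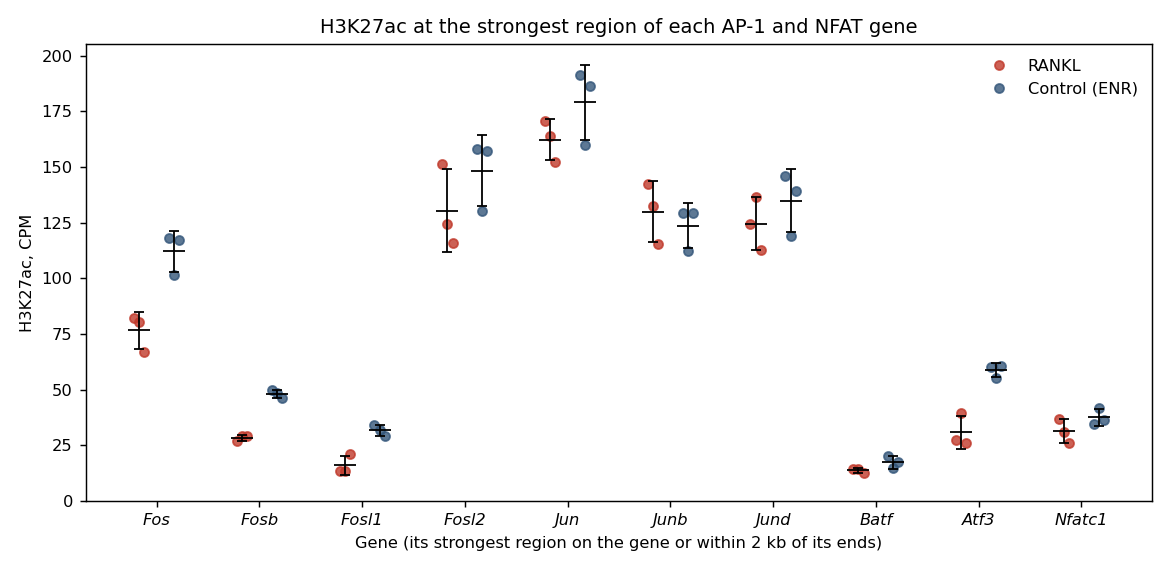
H3K27ac in CPM (y axis) is plotted for each library at the strongest region on, or within 2 kb of, each of the 10 genes (x axis), with RANKL left of control. Horizontal lines are means and error bars are SD over 3 libraries. RANKL libraries lie below all control libraries at Fos, Fosb, Fosl1, Atf3 and Batf, of which Batf was not called, and the arms overlap at the other genes.

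Nfatc1, the calcineurin-regulated factor at the head of the osteoclast program, had the largest number of regions, with mean levels of 4.53 to 34.4 CPM. Its strongest region (chr18:80707200-80709200, inside the gene) held 36.7, 31.1 and 26.0 CPM in RANKL organoids, against 34.4, 41.7 and 36.4 CPM in control organoids, and its change of -0.30 ± 0.13 was not called (adjusted p = 0.0577). Without RANKL replicate 1 (-0.42) or control replicate 1 (-0.35) it was called lower. A region in the middle of the gene (chr18:80654805-80656805) stood out in the other direction, with 25.7, 36.8 and 26.0 CPM with RANKL and 13.7, 15.2 and 14.4 CPM in controls. All RANKL libraries exceeded all control libraries, and the rise of 1.02 ± 0.16 (adjusted p = 3.81e-09) held under all 12 alternatives.

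Of the other 9 Nfatc1 regions, 4 fell and 5 were not called. A called region inside the gene (chr18:80623319-80625319) held 8.20, 11.8 and 8.43 CPM with RANKL and 14.7, 15.4 and 17.8 CPM in controls, and its fall of 0.75 ± 0.21 held under all 12 alternatives. The other 3 calls were each lost without 1 library. The region at the lowest coordinate, outside the gene, had 19.3, 13.3 and 4.82 CPM with RANKL and 19.1, 21.3 and 17.4 CPM in controls. Its change of -0.73 became -0.28 and not called without RANKL replicate 3. DESeq2 on all libraries did not call it either (-0.64, adjusted p = 0.373). The next one, at -0.62, was not called without RANKL replicate 1 (-0.40) or control replicate 1 (-0.53), and the one beyond the higher-coordinate end of the gene, at -0.93, was not called without RANKL replicate 3 (-0.58) or control replicate 2 (-0.75). Of those not called, 1 inside the gene, at -0.57, was called lower without RANKL replicate 3 (-0.75).

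**Figure D4:**
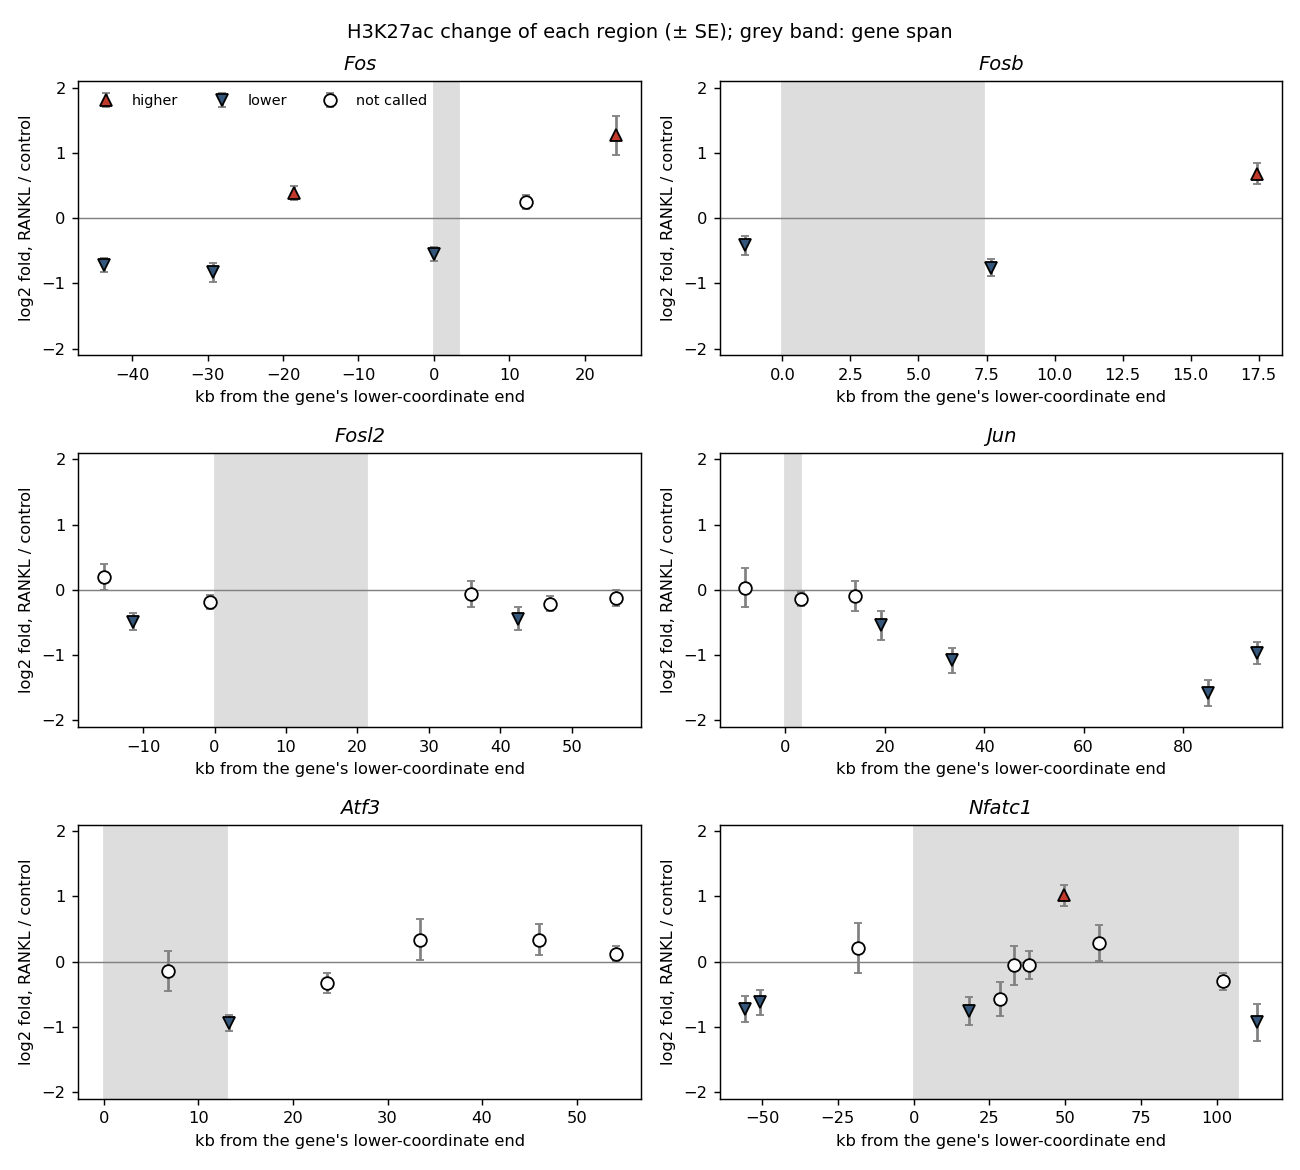
For the 6 genes with more than 1 region, the log2 fold change of H3K27ac, RANKL over control (y axis, error bars SE), is plotted against position from the lower-coordinate end of the gene in kb (x axis), with the gene span in grey. Upward triangles are regions called higher, downward triangles regions called lower and open circles regions not called. Fos, Fosb and Nfatc1 carry called regions of both directions, and Fosl2, Jun and Atf3 carry called regions of the lower direction alone.

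Whether regions of 1 gene differed in their change was tested directly, by comparing the log2 fold change of each region with that of the summed counts of its gene. Of the 40 regions at the 6 genes with more than 1 region, 6 were above their gene, 11 were below it and 23 were not called. The called share was 42.5%, beside 25.3% of the 41283 regions tested at all genes, of which 13.4% were above and 11.8% below. Here too the shares were not matched for signal. Without control replicate 2, 7 of the 40 were below. The 6 regions above were the 3 Fos regions at 18.5 kb upstream (0.59 above the gene), 12.2 kb past the start (0.44) and 24.1 kb past the start (1.47), the distal Fosb region (0.99), the distal Atf3 region at 41.1 kb (0.38) and the inner Nfatc1 region (1.19). Of these, 5 held under the 10 alternatives run, and the Atf3 region was not called without control replicate 1 (0.33). Below their gene were the starts of Fos (-0.35), Fosb (-0.45) and Atf3 (-0.68), both Fos regions farther than 20 kb upstream (-0.52 and -0.63), the Jun regions 30.3, 81.7 and 91.7 kb upstream (-0.72, -1.22 and -0.61) and 3 Nfatc1 regions. No Fosl2 region differed from its gene by this test. Calls at the 3 Nfatc1 regions, at the Fos start (without RANKL replicate 3, -0.28) and at the nearest of the 3 Jun regions (without control replicate 2, -0.46) were lost in at least 1 alternative, and the other 6 were kept. With the replicate block, the Nfatc1 region beyond the higher-coordinate end was not called by this test (adjusted p = 0.0595).

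Summed over all regions of a gene, 7 of the 10 genes were lower with RANKL, 0 were higher and 3 were not called. At an unadjusted p under 0.05 edgeR also had 0 higher. DESeq2, which here took its scaling from the gene sums, called 1 higher, so test and scaling both differ. Over all 15897 genes tested, 54.8% were called, 16.2% higher and 38.6% lower, with a median log2 fold change of -0.14, so the members have to be read against that shift. The 7 were Fosl1 (-0.96), Jun (-0.36), Fosb (-0.30), Atf3 (-0.26), Fosl2 (-0.21), Fos (-0.20) and Nfatc1 (-0.18). When the scaling was computed on the gene sums, the median of all genes was 0.01, and of the 10 only Fosl1 (-0.80) and Jun (-0.21) were lower, while Junb (0.22) was higher, beside 26.9% lower and 25.0% higher of all genes. Of the 7 calls, 2 held under all 13 alternatives run on the same regions, those of Fosl1 and Jun. The Nfatc1 call was lost under 9 of them, among them library size only (-0.09), removal of the signal trend (-0.08) and DESeq2 (-0.03). With the replicate block Nfatc1 was also not called (adjusted p = 0.0563 in edgeR). Without RANKL replicate 3 its value was -0.11 and not called.

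Fos summed to 344, 364 and 337 CPM in RANKL organoids and 416, 370 and 413 CPM in control organoids. Jun summed to 226, 230 and 208 CPM in RANKL organoids and 294, 266 and 291 CPM in control organoids. In both genes all RANKL libraries were below all control libraries.

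ONECUT2 sites lay near Fos and Jun, at shares not far from those of all genes and regions. The authors' deposited table lists 3, at Fos and Jun, and 2 of the 10 genes thus had a site, beside 26.9% of all genes with an H3K27ac region. Of the 44 regions, 2 overlapped a site by at least 1 bp, and 5.32% of all regions did. The ONECUT2 table gives a mean per condition and no values per library, so no spread can be stated. At 43.8 kb upstream of Fos (chr12:85429918-85430318) the authors' deposited table has a mean of 50.3 normalised reads with RANKL and 17.7 in controls, a log2 fold change of 1.46 and an FDR of 8.61e-06. This site lies inside the Fos region whose H3K27ac fell by 0.71, so the antibodies gave opposite directions there. The second Fos site in the authors' deposited table, 24.2 kb upstream (chr12:85449505-85449905), had 31.1 normalised reads with RANKL and 5.46 in controls, with a log2 fold change of 2.36 and an FDR of 7.4e-07. It overlaps no H3K27ac region and falls between the region at 29.3 kb, which fell, and that at 18.5 kb, which rose. The Jun site, 11.3 kb past the start (chr4:95040701-95041101), had 25.5 normalised reads with RANKL and 8.20 in controls in the authors' deposited table, with a log2 fold change of 1.57 and an FDR of 0.000311. It lies in a weak Jun region with a H3K27ac change of 0.03 ± 0.30. In the authors' deposited table, 7261 of the 7268 sites were higher with RANKL and the median log2 fold change was 1.86, so an increase at a listed site is the rule, and 2 of the 3 sites lie below that median.

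Partners and regulators of AP-1 and NFAT were described with the same gene sums. Counts in each list stand beside 16.2% higher and 38.6% lower of all genes. With scaling on gene sums these shares were 25.0% higher and 26.9% lower. Among 13 bZIP partner genes, 1 was higher and 5 were lower with RANKL, with a median log2 fold change of -0.02. Maff, a small Maf protein, had a log2 fold change of 0.22, while Atf7 (-0.35) and Atf2 (-0.31), Jun partners of the cAMP response element class, were lower. Scaling on gene sums gave 2 higher and 1 lower, with a median of 0.13, and Atf2 (-0.16) was then not called. The median was 0.04 without RANKL replicate 3 and 0.01 without control replicate 2.

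Among 12 NFAT and calcineurin genes 0 were higher and 7 lower, with a median of -0.23. At an unadjusted p under 0.05 edgeR had 1 higher. DESeq2, with its scaling taken from the gene sums, called 3 higher. The largest falls were at Ppp3cc (-0.72), a catalytic subunit of calcineurin, and Nfatc3 (-0.44), a relative of Nfatc1. Scaling on gene sums gave 3 higher and 5 lower.

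Among 17 kinases and factors that act upstream of AP-1, 3 were higher and 8 lower, with a median of -0.22. Egfr, the receptor for the EGF in the medium, was higher (0.38), as was Map2k6 (0.20), a kinase of the p38 pathway. Srf, the serum response factor that acts at the CArG box of immediate-early promoters, had 45.7, 46.8 and 41.4 CPM with RANKL and 78.8, 66.5 and 88.1 CPM in controls at its 1 region, a change of -0.80 ± 0.11. Mapk14, the p38 alpha kinase, was also lower (-0.56), at 1 weak region with means of 9.31 CPM with RANKL and 13.9 CPM in controls. With scaling on gene sums its value was -0.41 and not called. Scaled on gene sums, 4 were higher and 6 lower.

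Among 16 immediate-early and AP-1 target genes with a region, 3 were higher and 9 lower, and scaling on gene sums also gave 3 and 9. Their median log2 fold change was -0.38, beside -0.14 over all genes. Egr2, a zinc finger immediate-early factor, had 17.8, 17.8 and 19.8 CPM in RANKL organoids and 60.7, 59.8 and 63.6 CPM in control organoids, a change of -1.72 ± 0.13, and its relative Egr3 changed by -1.42 at a very low level of 0.357 to 3.86 CPM with RANKL and 4.88 to 9.13 CPM in controls. The higher ones included Mmp10 (0.97), a matrix metalloproteinase, and Hmox1 (0.54), heme oxygenase 1. Mmp10 was at a low level, with 11.4, 5.13 and 5.30 CPM in RANKL organoids and a mean of 3.49 CPM in control organoids. Its arms did not overlap, but with the signal trend removed its change was 0.74 and was not called.

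Of 9 osteoclast targets of NFATc1, Dcstamp, Ocstamp and Itgb3 had no region, and of the other 6, 1 was higher and 2 were lower, with a median of -0.12. Calcr, the calcitonin receptor, had 31.7, 32.0 and 24.8 CPM with RANKL and 6.76, 13.2 and 6.56 CPM in controls, a rise of 1.65 ± 0.19 with no overlap. Lower were Mmp9 (-1.04), at 1.43 to 2.72 CPM with RANKL and 3.38 to 6.16 CPM in controls, and Atp6v0d2 (-0.44), a subunit of the proton pump. With gene-sum scaling 2 were higher and 1 lower, and Mmp9 (-0.90) was then not called. With the replicate block 1 was higher and 1 lower. The sign of this median was not stable: it was -0.26 without control replicate 3, 0.08 without control replicate 1 and 0.03 with gene-sum scaling.

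Small counts in these lists moved with single libraries. Of the bZIP partners, 0 were higher without RANKL replicate 1 or control replicate 2, and 2 were higher without RANKL replicate 3 or control replicate 1. Of the NFAT and calcineurin genes, 1 was higher without control replicate 2. Kinase and factor counts ran from 2 to 3 higher and from 6 to 10 lower, and immediate-early counts from 2 to 4 higher and from 9 to 10 lower. Among the osteoclast targets, 1 was lower without RANKL replicate 1, RANKL replicate 3 or control replicate 2.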

How the data were processed

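The H3K27ac table was deposited by the authors as raw read counts per region, with mm10 as build per the submitters' processing notes. The authors' deposited ONECUT2 table was made with DiffBind, per the same notes. It gives log2 mean normalised reads per condition, a log2 fold change and a p-value with its FDR per site, per the file headers. The sources used here name no aligner, peak caller, duplicate handling or normalisation, and 2 input libraries and a scaled copy of the counts were not analysed here.

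The test was edgeR's quasi-likelihood test (edgeR 4.0.16 under R 4.3.3) after TMM scaling and the filterByExpr filter, with Benjamini-Hochberg adjustment over all features. CPM values use these library sizes, also for sums over the regions of a gene. A region was compared with its gene by diffSpliceDGE, which takes the summed counts of all tested regions of the gene, the region itself included. Regions and sites were assigned with a RefSeq table of 21887 protein-coding spans on GRCm38.p6, in which exons and introns are not resolved. Distances run from region centre to gene start, and coordinates are printed as deposited. Tests were checked on simulated data in which a small set of well-covered regions changed, up or down alike. That check did not cover weak regions, widespread change or a fold change that trends with signal. Of each gene the strongest region on or within 2 kb of it and the region with the smallest adjusted p are described in full, and of each list up to 2 called genes per direction with the largest change. The genes and lists were chosen with earlier results of these data known. The library descriptions number experiments 1 to 3 in both arms, without stating that same-numbered ones were run together, and the replicate block uses these numbers. Deviations of same-numbered libraries from their arm mean correlated at -0.027 to 0.014, and those of differently numbered ones at -0.033 to 0.047. These deviations include counting noise at weak regions, so the values cannot exclude a shared effect of an experiment. Libraries within an arm differed beyond sampling noise (chi-square per degree of freedom 1.80 to 2.06). Alternatives covered scaling, filter, tool (DESeq2 1.42.0), distance, the replicate block and each library left out.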

Additional observations from a re-analysis of the deposited data

How the results depend on the processing

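The 4 regions called higher held under the 12 alternatives run on the same regions, as did 10 of the 17 called lower, and no called value changed sign. With the signal trend removed, 7 regions were higher, and 4 gene sums were lower and 1 higher. Only 24 of the 44 regions lie within 10 kb of a gene, which left 2 higher and 7 lower, and 3 above and 4 below their gene, with 1 ONECUT2 site. Gene sums depended on scaling: library size only gave 1 higher, and both the DESeq2 test and TMM on gene sums gave 1 higher and 2 lower. Sums of regions within 2 kb of gene ends gave 4 lower of 8. Leaving out 1 library at a time gave 4 to 5 regions higher and 14 to 17 lower, 6 to 8 gene sums lower and 0 higher, and 5 to 7 regions above and 7 to 10 below their gene, the lowest count coming without control replicate 2.

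With the replicate block, 4 regions were higher and 17 lower, 6 gene sums were lower, and 6 regions were above and 10 below their gene. The block changed the calls of the Nfatc1 gene sum and of 1 Nfatc1 region against its gene, and no other call among the 10 genes. The comparison of a region with its gene was not run with the signal trend removed. Low RANKL depth limits weak regions, and intervals cover 3 experiments from 1 mouse. Where a call changed, the cause was not tested.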
